A study of Oryza sativa with 200 samples.

Results

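The 25 rice lines with the highest and the 25 lines with the lowest leaf transcript level of PCNA (Os02g0805200) were compared across all other genes, separately in 2022 and in 2023. The lines were selected on their measured PCNA level from 100 lines of the JAM2 population, so the comparison used 100 of 200 leaf libraries. JAM2 is a MAGIC population, in which several parents are intercrossed and the offspring inbred, and its 4 parents are the varieties Akidawara, Iwaidawara, Tachiharuka and Toyomeki. The same lines were grown in a paddy field in 2022 (generation F5) and in 2023 (generation F6), with 33 plants per line in a single plot and a basal dressing of chemical fertilizer that supplied 56 kg per ha of nitrogen. One fully expanded leaf per line and year was taken in the morning, 6 weeks after transplanting, and gave 1 poly(A) RNA library. High, middle and low lines therefore share the parents of the population, field, fertilizer and sampling. They are different inbred genotypes, and were set apart by the choice made on PCNA. The line was the replicate, and a p-value measures the spread between lines, with 1 leaf and 1 plot behind each value.

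PCNA forms a ring that slides along DNA and holds DNA polymerase to its template during replication and repair. Its transcript is abundant in dividing tissue such as the shoot apex, root tip and the base of a growing grass leaf, and low in a blade that has stopped growing. In a population of inbred lines, neighbouring genes on a chromosome are mostly inherited together from the same parent, so a line carries long parental segments.

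Lines were ranked by the mean over both years of log2(CPM + 1) of PCNA, centred in each year, where CPM is a gene's count divided by the library total and multiplied by 1000000. These values chose the groups and are given as a description, with no test. In 2022 the high lines held 7.75 to 13.3 CPM (median 10.6), the middle 50 lines 3.08 to 9.50 CPM (median 6.03) and the low lines 2.16 to 5.43 CPM (median 3.84). In 2023 the high lines held 5.93 to 9.80 CPM (median 7.58), the middle lines 2.44 to 7.69 CPM (median 4.63) and the low lines 1.30 to 4.07 CPM (median 2.69). PCNA was thus a transcript of low level in every line, and the ranking rested on 5 to 360 reads per library in the chosen lines. At the upper limit, the line ranked 25 had 9.79 CPM in 2022 and 6.11 CPM in 2023, and the line ranked 26, left out, had 8.90 and 6.68 CPM. At the lower limit, the line ranked 75, left out, had 3.95 and 3.82 CPM, and the line ranked 76 had 5.43 and 2.69 CPM. The limits cut a continuous range, and lines on either side of them had overlapping values in single years.

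**Figure D1:**
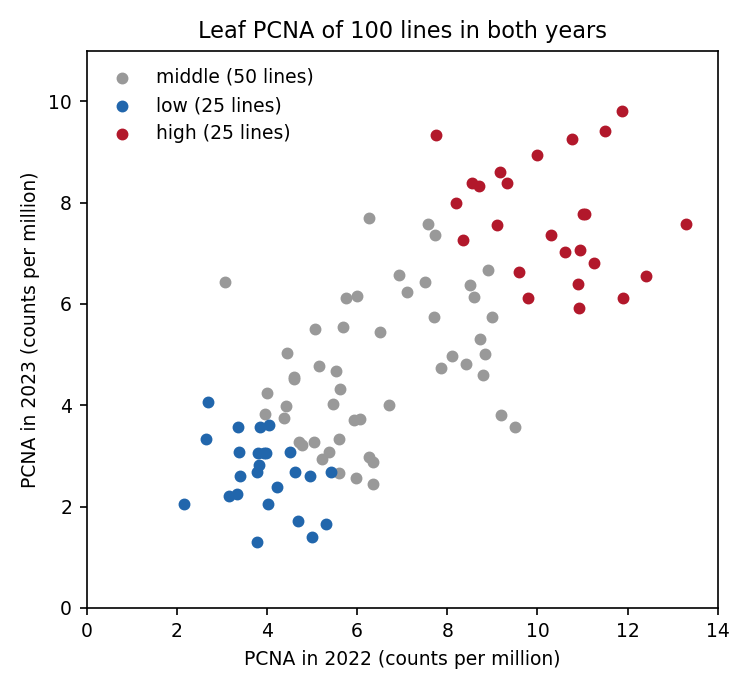
PCNA level of each of the 100 lines, with CPM in 2022 on the horizontal axis and in 2023 on the vertical axis. Each point is 1 line, coloured by its group; high lines (medians 10.6 and 7.58) fill the upper right and low lines (medians 3.84 and 2.69) the lower left, with no gap between groups.

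Taken over all 100 lines, the level of PCNA went with the line over the years. Within the sets of lines split by the state of a neighbouring gene, described below, r was lower (0.34 and 0.20). Across the 100 lines, log2(CPM + 1) of PCNA in 2022 and in 2023 had a Pearson r of 0.73 (Spearman's rho 0.74), and r was 0.72 without the 2 lines farthest from the 2022 median. When each year was ranked alone, 16 lines were among the 25 highest in both years, 13 were among the 25 lowest in both, and 0 were high in 1 year and low in the other. In a leaf sampled as bulk tissue, fewer cells with the transcript and less transcript per cell cannot be told apart.

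Most replication and cell cycle genes were near the floor of these libraries. None of the few tested was called between the groups, which is near the share over all genes. Of 23 named genes of S phase, mitotic cyclins and cell cycle kinases other than PCNA, 15 had a mean under 0.5 CPM over the 100 lines in 2022 and 16 in 2023. MCM3 (Os05g0476200), MCM5 (Os02g0797400), MCM6 (Os05g0235800) and MCM7 (Os12g0560700), subunits of the helicase that opens DNA for replication, had a median of 0 CPM in high and in low lines in both years. CYCB1-1 (Os01g0805600), a cyclin of mitosis, had medians of 0.13 CPM in high and 0.15 CPM in low lines in 2022, and 0.16 and 0.12 CPM in 2023.

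The replication and cell cycle genes that passed the filter on low counts numbered 7 in each year. MCM2 (Os11g0484300), another subunit of the helicase, ranged from 3.204 to 12.5 CPM (median 5.29) in high lines and from 2.68 to 13.5 CPM (median 5.45) in low lines in 2022. In 2023 MCM2 ranged from 2.27 to 10.1 CPM (median 5.21) in high lines and from 2.81 to 9.14 CPM (median 5.16) in low lines. The groups overlapped almost fully, and the log2 change of high over low lines was -0.01 (95% interval -0.31 to 0.29) in 2022 and -0.14 (-0.41 to 0.13) in 2023. RPA70a (Os02g0776800), which coats single-stranded DNA, had log2 changes of 0.06 (95% interval -0.06 to 0.17) and 0.03 (-0.10 to 0.15). For the cyclin-dependent kinases CDKA1 (Os03g0118400), CDKA2 (Os02g0123100) and CDKB1-1 (Os01g0897000), the D-type cyclin CYCD5-3 (Os03g0203800) and the kinase inhibitor KRP1 (Os02g0762400), log2 changes lay between -0.06 and 0.12 in 2022 and between -0.08 and 0.08 in 2023. edgeR's quasi-likelihood test called 0 of the 7 in either year at a Benjamini-Hochberg adjusted p under 0.05, against 0.314% of 18165 genes called in 2022 and 0.632% of 18662 in 2023. At an unadjusted p under 0.05 the count was 0 in both years (9.31% and 12.5% of all genes). DESeq2 also called 0 (0.611% and 1.36% of all genes). With 7 genes, a count of 0 is near these shares. Across the 100 lines the 7 genes had Pearson r with PCNA from -0.00 to 0.21 in 2022 and from -0.04 to 0.22 in 2023, over libraries that share depth and normalization. Their r with one another was also low, with a median of 0.12 in 2022 and 0.15 in 2023.

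**Figure D2:**
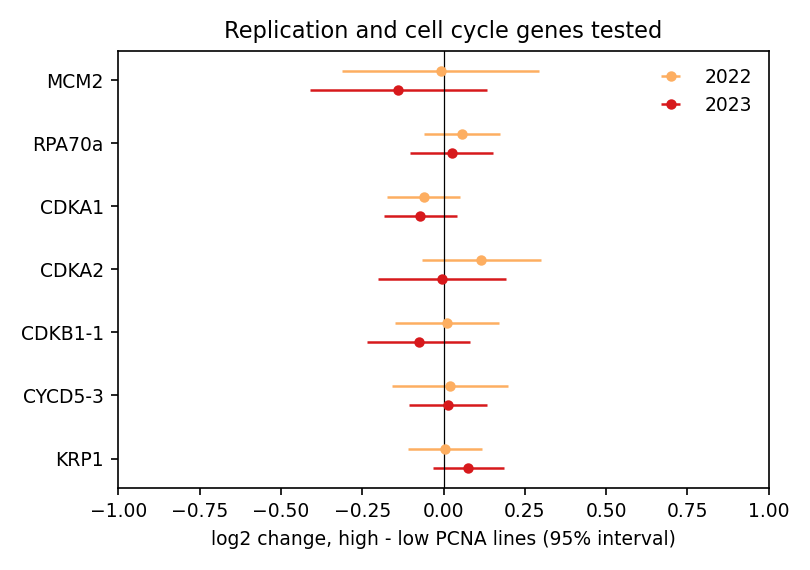
Log2 change of high over low PCNA lines for the 7 replication and cell cycle genes that passed the filter, with points for the estimate and bars for the 95% interval in each year. All 14 intervals span 0 and all estimates lie between -0.14 and 0.12.

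Genes that differed were concentrated on chromosome 2, which carries PCNA. In 2022, 57 genes were called (0.314% of those tested), of which 27 were higher and 30 lower in high lines, and 50 of the 57 lay on chromosome 2. In 2023, 118 genes were called (0.632%), of which 66 were higher and 52 lower, and 63 lay on chromosome 2. Calls on the other chromosomes numbered 7 in 2022 and 55 in 2023. Scaling to total counts in place of TMM factors (edgeR's scaling by the bulk of genes) called 0.677% of genes in 2022, 82.1% of them higher, and 1.69% in 2023, 90.8% of them higher, against 47.4% and 55.9% higher with TMM. Of the calls with total counts 48.8% in 2022 and 26.3% in 2023 lay on chromosome 2, and of those with DESeq2 64.9% and 32.8%, against 87.7% and 53.4% in the main test. It moved the median log2 change of all genes by 0.06 and 0.08.

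A difference held in both years, with the same direction and an adjusted p under 0.05 in each, for 37 of the 18003 genes tested in both (0.206%). Of these, 19 were higher (0.106%) and 18 lower (0.1%) in high lines. On chromosome 2, 35 of 2184 genes held (1.6%), and on the other chromosomes 2 of 15819 (0.0126%). All 35 lay in the last stretch of chromosome 2, from Os02g0780500 to Os02g0834050, between 198 listed genes before PCNA and 283 listed genes after it, close to the end of the chromosome's list. The stretch is bounded by these calls and holds 267 tested genes. By distance, 12 of 35 tested genes held within 25 listed genes of PCNA, 5 of 19 at 26 to 50, 9 of 54 at 51 to 100, 3 of 108 between 100 and 200, and 6 of 158 between 200 and 400. The stretch held both directions, with 18 genes higher and 17 lower in high lines, and 13 of the 18 higher genes lay within 50 listed genes of PCNA.

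**Figure D3:**
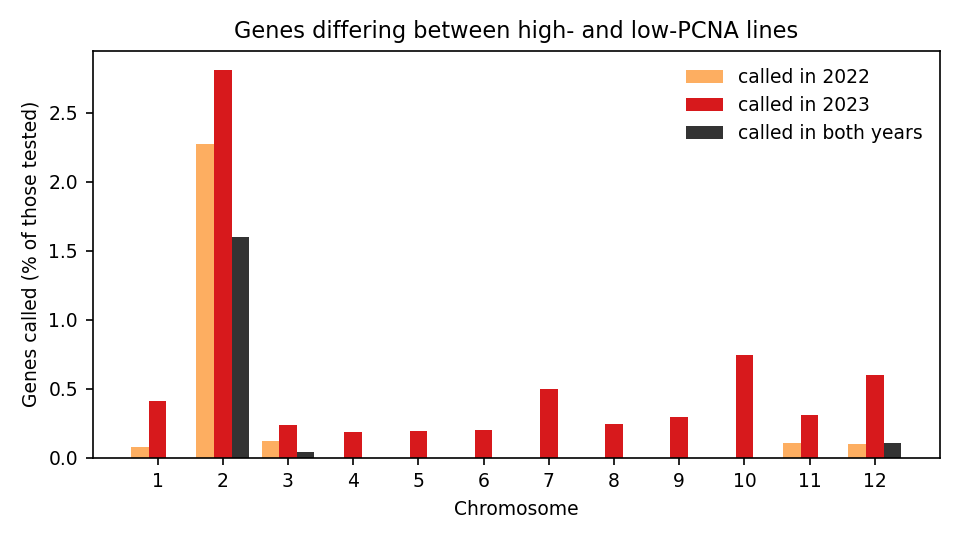
Share of tested genes called between high and low PCNA lines on each of the 12 chromosomes (adjusted p under 0.05), in 2022, in 2023 and in both years. Chromosome 2 stands above the rest in all 3 bars, with 1.6% of its genes called in both years; chromosome 3 and chromosome 12 have 1 such gene each.

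**Figure D4:**
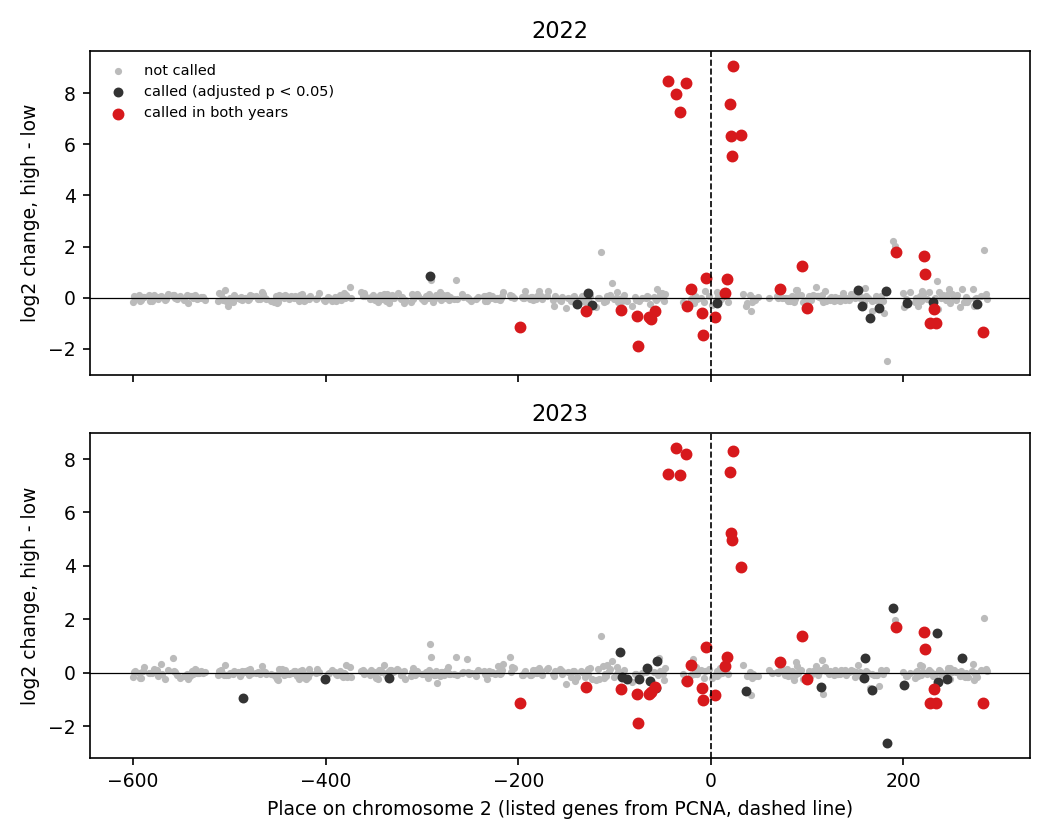
Log2 change of high over low PCNA lines for tested genes of chromosome 2, by place relative to PCNA counted in listed genes, in 2022 (upper) and 2023 (lower); the plot starts 600 genes before PCNA. Genes called in both years, in red, begin 198 listed genes before PCNA and run to 283 after it, with the 9 changes of at least 3 on the log2 scale in both years all positive and near the dashed line.

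The 9 genes with a log2 change of at least 3 in both years were all higher in high lines, and most were near 0 in low lines. Os02g0801200, 36 listed genes before PCNA and chosen for description after its values were seen, is 1 of them. In 2022 it held 5.23 to 14.3 CPM (median 10.2) in high lines and 0 to 0.69 CPM (median 0) in low lines, with 0 reads in 21 of the 25 low lines. In 2023 it held 5.47 to 13.7 CPM (median 9.26) in high lines and 0 to 0.16 CPM in low lines, with 0 reads in 23 of the 25. The groups did not overlap in either year, as for 0.0275% of genes tested in 2022 and 0.0268% in 2023. The adjusted p from edgeR was 1.43e-29 in 2022 and 4.55e-36 in 2023, and no fold is given because the fitted value of a gene at 0 depends on the prior count.

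The state of Os02g0801200 split all 100 lines. Since the gene was picked because it separates high from low lines, its relation to PCNA is given as a description of that choice. With a limit of 0.5 CPM in both years, it was on in 47 lines, namely all 25 high lines, 22 of the 50 middle lines and 0 of the 25 low lines. Lines in the on state had at least 4.44 CPM in 2022 and 5.47 CPM in 2023, and the others had at most 0.69 and 0.16 CPM, so 1 off line lay above the limit in 2022. In 99 of 100 lines both years gave the same state. PCNA had a median of 8.90 CPM in on lines (range 4.01 to 13.3) and 4.63 CPM in off lines (range 2.16 to 7.87) in 2022, and of 6.62 CPM (range 3.57 to 9.80) and 3.08 CPM (range 1.30 to 6.43) in 2023. The ranges of PCNA overlapped between the states, but 46 of the 50 lines with the highest PCNA were on and 1 of the 50 lowest was. Among the middle lines alone, median PCNA was 7.92 CPM in the 22 on lines and 5.42 CPM in the 28 off lines in 2022, and 5.75 and 3.79 CPM in 2023. Within the 47 on lines, PCNA had a Pearson r between the years of 0.34 (Spearman's rho 0.30). Within the 53 off lines r was 0.20 (rho 0.19). Each set covers a narrower range of PCNA than all 100 lines, and how far this lowers r was not tested.

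The comparison was repeated with the PCNA score as a continuous term over all 100 lines, a fit chosen after the first results were seen. It called 95 genes in 2022 (0.526%) and 168 in 2023 (0.885%), and 55 held in both years (0.306%), 52 of them on chromosome 2 and 33 of them among the 37. With the state of Os02g0801200 as a second term, edgeR called 0 genes in 2022, with 1008 at an unadjusted p under 0.05, and 1.67% of genes in 2023, of which 45 lay on chromosome 2, and 0 held in both years. Adding the state thus lowered the share of genes called in 2022 and raised it in 2023, from 0.885% to 1.67%. Of the 2023 calls, 48.8% lay on chromosome 2 without the state and 14.2% with it. The score and the state go together, and how far this changes the error of the score in that fit was not tested.

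Os02g0801200 was joined by 7 other genes that were at or over 0.5 CPM in at least 23 of the 25 high lines and at most 3 of the 25 low lines in both years. The 8 genes lay from 44 listed genes before PCNA to 31 after it, on both sides of it. Their on state matched that of Os02g0801200 in 94 to 100 of the 100 lines. In high and low lines most of this match was fixed by how the genes were chosen. Os02g0801450 and Os02g0802301 matched Os02g0801200 in 100 of the 100 lines, and so in every middle line. For the other genes the match was not counted for the middle lines alone. Medians of the 8 genes in high lines ran from 1.83 to 41.1 CPM, and in low lines did not exceed 0.10 CPM. That these medians lie above 0.5 CPM in high lines and below it in low lines also follows from the choice. By edgeR's fitted changes Os02g0807750 and Os02g0802301 ranked first among unnamed genes that rose, an order that depends on the prior count, since with DESeq2 Os02g0801200 ranked above Os02g0802301. Os02g0807750, 23 listed genes after PCNA, had a median of 10.6 CPM (range 0 to 17.2) in high lines and 0 CPM (range 0 to 0.25) in low lines in 2022, and of 10.1 CPM (range 0 to 13.9) and 0 CPM (range 0 to 0.18) in 2023. Its groups overlapped through 1 high line without reads. Os02g0802301, 26 listed genes before PCNA, had a median of 4.14 CPM (range 2.60 to 6.37) in high lines and was at 0 in 24 of 25 low lines in 2022. In 2023 it had 3.27 CPM (range 1.43 to 5.42) in high lines and 0 reads in all 25 low lines. The deposited tables hold no coordinates, so whether adjacent loci share reads was not tested.

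Other neighbours differed by degree. Os02g0805500, 4 listed genes after PCNA and also picked after its values were seen, was lower in high lines. In 2022 it held 24.99 to 42.5 CPM (median 33.1) in high lines and 46.3 to 65.7 CPM (median 52.6) in low lines. In 2023 the ranges were 25.4 to 37.4 CPM (median 31.6) and 40.4 to 61.5 CPM (median 52.4). High and low lines did not overlap in either year. In edgeR the log2 change was -0.74 (SE 0.04) with an adjusted p of 1.98e-19 in 2022 and -0.84 (SE 0.05, adjusted p 6.38e-21) in 2023. In all, 5 genes had groups that did not overlap in both years (0.0278% of those tested in both), 4 of them higher in high lines, and all 5 were among the 37.

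RR23 (Os02g0796500), a type-B response regulator, the class of transcription factor that acts at the end of cytokinin signalling, fell in high lines. Its level in 2022 was 26.2 to 45.5 CPM (median 31.1) in high lines and 42.8 to 58.6 CPM (median 52.8) in low lines. In 2023 it was 17.1 to 43.7 CPM (median 29.7) in high lines and 25.2 to 71.4 CPM (median 49.4) in low lines. High lines lay mostly below low lines, with a narrow overlap in 2022 and a wider one in 2023. By edgeR its log2 change was -0.73 (SE 0.05) with an adjusted p of 6.88e-16 in 2022, and -0.80 (SE 0.08) with an adjusted p of 1.14e-10 in 2023. It lies 77 listed genes before PCNA. Of the 8 named genes of a separate cytokinin list, 0 were called in either year by edgeR (0.314% and 0.632% of all genes) or DESeq2 (0.611% and 1.36%), and 0 passed an unadjusted p of 0.05 (9.31% and 12.5% of all genes). With 8 genes, a count of 0 called is near these shares.

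MGD3 (Os02g0802700), a synthase of the galactolipids of plastid membranes, rose in high lines. In 2022 it held 17.9 to 38.3 CPM (median 23.5) in high lines and 11.4 to 24.8 CPM (median 17.7) in low lines. In 2023 it held 19.9 to 30.9 CPM (median 24.99) in high lines and 13.7 to 25.6 CPM (median 19.4) in low lines. Most high lines exceeded most low lines, and the groups overlapped in both years. The log2 change was 0.33 (SE 0.07, adjusted p 0.0129) in 2022 and 0.30 (SE 0.05, adjusted p 0.000517) in 2023 by edgeR. It lies 21 listed genes before PCNA. Without the lines of the 30 deepest 2022 libraries the call was lost in both years, with log2 changes of 0.34 (adjusted p 0.257) and 0.26 (adjusted p 0.103).

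**Figure D5:**
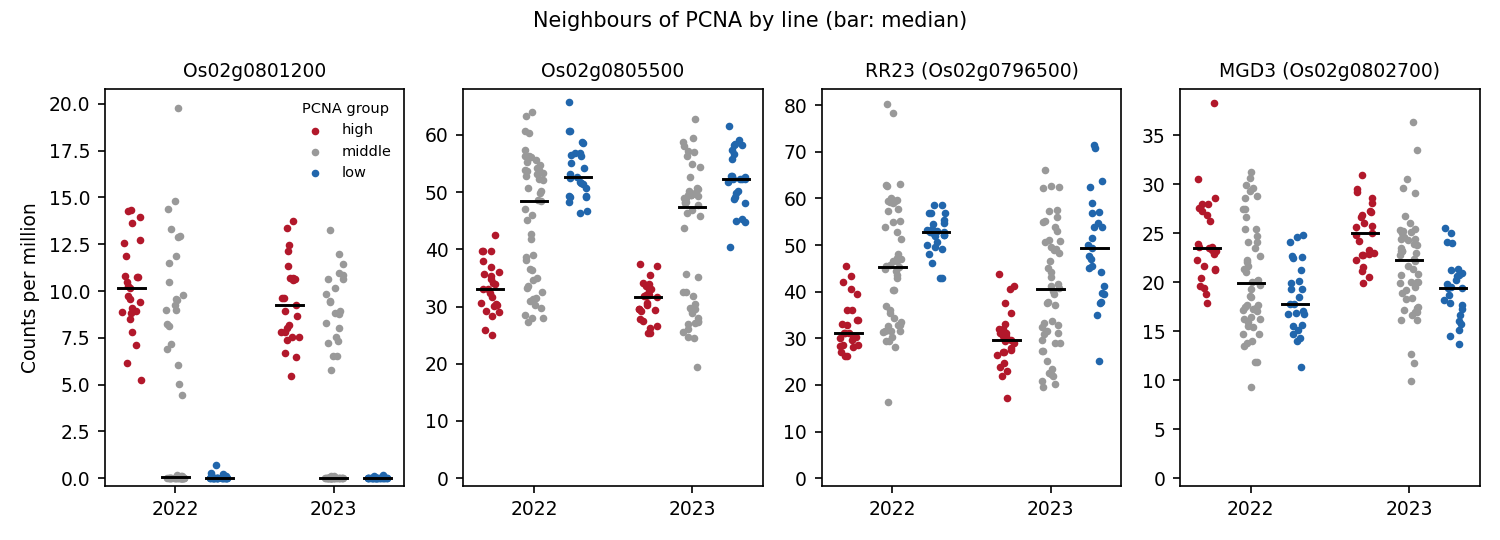
Level of 4 genes near PCNA in every line (CPM, 1 point per line, bar at the median), by PCNA group and year. Os02g0801200 is either near 0 or above 4 CPM, and the middle lines hold both states; Os02g0805500 and RR23 are lower and MGD3 is higher in high lines, with no overlap of high and low lines for Os02g0805500.

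The largest falls among unnamed genes were those of Os02g0796600 and Os02g0834050. Os02g0796600, next to RR23 in the list, had a median of 0.56 CPM (range 0.15 to 1.35) in high lines and 2.05 CPM (range 0.51 to 6.00) in low lines in 2022. In 2023 the medians were 0.48 CPM (range 0.17 to 1.83) and 2.21 CPM (range 0.81 to 3.84). Its log2 change was -1.89 (SE 0.19, adjusted p 1.9e-10) and -1.86 (SE 0.19, adjusted p 6.03e-10). Os02g0834050, the last of the 35 along the chromosome, had medians of 1.89 and 6.10 CPM in high and low lines in 2022 and of 1.88 and 5.02 CPM in 2023. Its log2 change was -1.32 (SE 0.21, adjusted p 6.07e-05) and -1.14 (SE 0.21, adjusted p 0.00136). The groups of both genes overlapped.

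Most named genes in the same stretch did not pass the test. A list of 27 named genes at the end of chromosome 2, written after the place of the calls was seen, had 20 members tested in 2022 and 21 in 2023. In 2022 1 was higher and 3 were lower, and in 2023 1 was higher and 1 was lower, against the 0.149% of genes higher and 0.165% lower in 2022 and 0.354% and 0.279% in 2023. These shares are of all chromosomes, while the list was drawn from the stretch of the calls. In that stretch 35 of 267 tested genes held in both years (13.1%), and of the list 2 held. The median log2 change of the list was -0.02 in both years, beside -0.00 and 0.00 over all genes tested. PIP1-3 (Os02g0823100), an aquaporin of the plasma membrane, was called in 2022 alone. It had medians of 164.7 CPM in high and 287.5 CPM in low lines in 2022 and of 152.7 and 183.4 CPM in 2023, with overlapping groups. Its log2 change was -0.78 (SE 0.14, adjusted p 0.00103) in 2022 and -0.56 (SE 0.15, adjusted p 0.0534) in 2023. XBOS32 (Os02g0791200), a RING-type ubiquitin ligase, had a log2 change of -0.27 (SE 0.06, adjusted p 0.0117) in 2022 and of -0.21 (SE 0.06, adjusted p 0.0840) in 2023. STD1 (Os02g0810200), a kinesin of the plate that forms between dividing plant cells, had a median of 1.22 CPM in high and 1.43 CPM in low lines in 2022 and of 0.59 and 1.85 CPM in 2023, and its log2 changes of -0.51 (adjusted p 0.583) and -0.81 (adjusted p 0.185) did not pass. Not called in either year were RPT5a (Os02g0803700), a proteasome subunit, with -0.06 and -0.03, and the sucrose transporter SUT4 (Os02g0827200), with -0.01 and 0.03.

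Named genes with levels most like PCNA over the 100 lines in both years, of which 4 are given, lay on chromosome 2. Only named genes were ranked, and 27 of them came from the list for the end of chromosome 2. That list was written after the place of the calls was seen, so the place of these genes follows in part from it. MGD3 had a Pearson r with PCNA of 0.52 in 2022 and 0.49 in 2023 on log2(CPM + 1). IAA10 (Os02g0817600), a repressor of auxin response, had 0.32 and 0.32. GS1;1 (Os02g0735200), the cytosolic glutamine synthetase, had 0.32 and 0.30, and the small heat shock protein gene HSP18.6 (Os02g0782500) had 0.27 and 0.27. Of these 4, MGD3 alone was called between the groups.

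Differences away from chromosome 2 that held in both years were 2. Os03g0599800 and Os12g0164800 were both graded with overlapping groups. Os03g0599800 had medians of 69.4 CPM in high and 59.2 CPM in low lines in 2022 and of 70.5 and 56.4 CPM in 2023, with log2 changes of 0.22 (SE 0.04, adjusted p 0.00480) and 0.20 (SE 0.05, adjusted p 0.0268). Os12g0164800 had medians of 31.7 CPM in high and 47.2 CPM in low lines in 2022 and of 33.8 and 50.8 CPM in 2023, with log2 changes of -0.45 (SE 0.11, adjusted p 0.0299) and -0.46 (SE 0.11, adjusted p 0.0204). Among the 55 genes called elsewhere in 2023, Os07g0472200, picked after its values were seen, had medians of 19.4 CPM in high and 12.5 CPM in low lines and a log2 change of 0.57 (SE 0.09, adjusted p 5.31e-05), and in 2022 17.3 and 13.1 CPM and 0.38 (SE 0.10, adjusted p 0.0877).

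To separate the choice of lines from the libraries tested, the lines were ranked by PCNA in 1 year alone and compared in the other. The 2022 libraries of lines ranked in 2023 gave 43 called genes (0.237%), 41 of them on chromosome 2, and the 2023 libraries of lines ranked in 2022 gave 67 (0.358%), 59 of them on chromosome 2. Of 17983 genes tested in both, 38 held (0.211%), and all 38 lay on chromosome 2. The lists shared 32 genes, which is 86.5% of the 37 and 84.2% of the 38. Os03g0599800 then had log2 changes of 0.12 (adjusted p 0.549) and 0.14 (adjusted p 0.266), and Os12g0164800 of -0.43 (adjusted p 0.107) and -0.36 (adjusted p 0.138). RR23, MGD3 and Os02g0805500 were called in both years under this ranking.

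No gene was shown to differ between the years in its change. The test of the group-by-year term in edgeR called 0 of 19598 genes, with 399 at an unadjusted p under 0.05 and a smallest adjusted p of 0.999962. It took both libraries of a line as independent, so the pairing of the years was not used. A fit that pairs them is given with the dependence on processing. The genes called in 1 year alone, on chromosome 2 and elsewhere, were therefore not shown to respond differently in the other year.

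Among genes of other leaf pathways none was called by edgeR. Over 18 lists with 128 named genes outside the list for the end of chromosome 2, 82 genes were tested in 2022 and 85 in 2023, and edgeR called 0 in either year (0.314% and 0.632% of all genes). With so few genes, a count of 0 called is near these shares. At an unadjusted p under 0.05 there were 11 of 82 in 2022 and 18 of 85 in 2023. Both are above the 9.31% and 12.5% of all genes, and this excess was not tested. DESeq2 called 0 and 1 (0.611% and 1.36% of all genes), and scaling to total counts 0 and 2 (0.677% and 1.69%). The lists cover growth regulators, meristem genes, walls, photosynthesis, chloroplast, senescence, flowering, the clock, panicle, root, sucrose and starch, nitrogen, gibberellin, cytokinin and defence besides cell division. List medians of the log2 change ran from -0.34 (secondary wall, 3 genes) to 0.15 (panicle and flower, 1 gene) in 2022 and from -0.31 (panicle and flower, 2 genes) to 0.41 (defence, 4 genes) in 2023. PBZ1 (Os12g0555500), a pathogenesis-related protein, had the smallest adjusted p of the defence list in 2023, with log2 changes of 0.11 (SE 0.08, adjusted p 0.773) in 2022 and 0.34 (SE 0.10, adjusted p 0.0700) in 2023. DESeq2 and total counts each called 1 gene of that list in 2023.

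Measures of the libraries overlapped widely between the groups. The library total of high lines was 5242564 to 37774023 counts (median 9583582) in 2022 and 3729294 to 15275121 (median 11047875) in 2023. That of low lines was 3254834 to 36408048 counts (median 7703364) in 2022 and 3842364 to 16145729 (median 11153577) in 2023. OsLHY (Os08g0157600), a morning gene of the clock, had medians of 869.7 CPM in high and 1024 CPM in low lines in 2022 and of 1806 and 1617 CPM in 2023. OsMADS14 (Os03g0752800), which rises as the shoot turns to flowering, had medians of 1.43 and 0.92 CPM in 2022 and of 1.19 and 0.75 CPM in 2023. With OsLHY, OsMADS14 or the library total as a covariate, 37 of the 37 genes that held remained. With the position of the library among the table's columns as a covariate, 31 of the 37 remained, and in 2023 Os03g0599800 (adjusted p 0.0526) and Os12g0164800 (adjusted p 0.0584) lost their calls.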

How the data were processed

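The authors deposited unnormalized whole-number counts, 1 table per year, of unique exon reads per gene by the name the labels give the tables. The submitters' processing notes name genome build IRGSP-1.0. Neither an aligner nor a counting program is named. Every one of the 200 columns was tied to its sample by the labels, with 0 left over, and 0 libraries were duplicates. The line number pairs the libraries of a line by design, and the years were tested separately.

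Within each year, edgeR 4.0.16 in R 4.3.3 tested 25 high against 25 low lines by its quasi-likelihood F test, with filterByExpr, TMM factors and Benjamini-Hochberg adjustment over all genes tested. PCNA itself was left out. The SE of a log2 change was its size over the root of F. Alternatives included DESeq2 1.42.0, which changes the test and the scaling, and are given with the dependence on processing. The edgeR test was also run on simulated counts with planted changes. Those counts held no choice of lines on a gene, no genes inherited together and no on/off genes. They therefore do not check the test for these features of the data.

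Members and gene lists were chosen with earlier results of these data known. Of 220 pairs of symbol and locus written from general knowledge, 156 were kept, because the RefSeq gene table of assembly ASM3414082v1 lists the symbol on the same chromosome at a compatible place. Symbols were absent for 55, 4 lay on another chromosome, 1 was out of order and 4 shared 1 listed gene. The lists of core histones and DNA repair genes lost all members this way and were not used here. The genes named were list members that the counts turn on, the 2 largest rises and 2 largest falls among unnamed genes that held (ranked by the smaller of both years' changes, with a mean of at least 1 CPM), and the 5 named genes most like PCNA, of which 1 is not reported here. Others are marked as picked after their values were seen. Intervals are at 95%. Low counts limit precision, since PCNA had as few as 5 reads in a chosen library.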

Additional observations from a re-analysis of the deposited data

How the results depend on the processing

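The calls of 0.314% of genes in 2022 and 0.632% in 2023, and the 37 genes that held, moved by more than 1.5 times under several alternatives. Total counts called 0.677% and 1.69% with 59 held, and DESeq2 0.611% and 1.36% with 61 held. With no filter on low counts 0.317% were called in 2023. With 15 lines a group 0.179% were called in 2023 and 20 held, and with 50 lines a group 0.533% were called in 2022 and 59 held. Ranking by TMM values gave 0.257% in 2023, and column position as a covariate 0.551% and 0.311%. OsLHY as a covariate gave 0.473% and 1.07%, and OsMADS14 0.622% in 2022. Ranking by the other year gave 0.358% in 2023. In 2022 that ranking gave 0.237% with edgeR and 0.358% with DESeq2, a shift from its own edgeR value and not from 0.314%. Leaving out the 5 highest and 5 lowest lines gave 0.203% and 0.263%. At least 2-fold in each year was met by 16 of the 37. Chosen after seeing the data, leaving out the lines of the 30 deepest 2022 libraries (10 high and 9 low) gave 0.199% and 0.216% with 20 held. The continuous score gave 0.526% in 2022, and with the state of Os02g0801200 0 and 1.67%, with 0 held. The cause of these shifts was not tested. RR23 and Os02g0805500 kept their calls in both years under 13 alternatives, and 0 named genes changed direction. Os03g0599800 lost its call in 2022 under 3 alternatives and in 2023 under 7. Os12g0164800 lost its call under 5 and 6, and MGD3 under 3 and 2. With 50 lines a group, edgeR gave Os12g0164800 log2 changes of -0.05 (adjusted p 0.903) in 2022 and -0.06 (adjusted p 0.947) in 2023.

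The difference between the years was also fitted with the line as a replicate block, since a line number marks the same line in both years. This paired fit called 0 of 19598 genes, with 537 at an unadjusted p under 0.05, against 0 without it. The tests within a year hold 1 library per line and cannot be paired.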
